A study of Mus musculus with 38 samples.

Results

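Whole testes of B6-ChrXTMSM males were set against whole testes of B6 males at 7 days after birth (7 dpp), 3 arrays of each, 6 of the 38 arrays of the series. B6 is C57BL/6J, the laboratory strain that served as control. B6-ChrXTMSM carries the distal part of the X chromosome of MSM, a strain derived from the Japanese wild mouse Mus musculus molossinus, and is B6 in the rest of its genome. Each array held RNA from 1 male, and the males of a strain were different animals, so the replicate spread is that between animals. The labels name no treatment. The series also holds B6-ChrXTMSM and B6 at 5 dpp, MSM and the whole-X strain B6-ChrXMSM, the congenic strain XS39-tel, and the hybrid (B6-ChrXTMSM x B6-Chr1MSM)F1, in 11 groups. Members were the arrays labelled with these 2 strains and this age, and the features examined were probe sets of autosomal genes, the higher ones included. Values are the deposited RMA signals on the log2 scale, in which a difference of 1 is a doubling.

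In the first week after birth the mouse testis holds Sertoli cells that still divide, Leydig cells of the fetal type, peritubular myoid cells, and a germ line made of gonocytes and spermatogonia. Some spermatogonia enter differentiation under retinoic acid, which switches on Stra8, and the first of them go on toward meiosis at the end of that week or soon after. Germ cells also silence transposons with PIWI-interacting small RNAs (piRNAs) and begin early to transcribe genes of the synaptonemal complex, the protein scaffold that pairs chromosomes in meiosis. In whole testis, fewer cells of a type and less RNA per cell cannot be told apart.

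Median log2 signals lay between 2.66 and 2.67 in B6-ChrXTMSM testes and at 2.69 in B6 testes, and the log2 difference between 3' and 5' probe sets of Actb lay between 1.08 and 1.15 in B6-ChrXTMSM and between 1.15 and 1.16 in B6 testes. Each array correlated with its own group at 0.9942 or above over the probe sets kept. B6-ChrXTMSM replicate 2 stood nearest to the B6 arrays, with correlations of 0.9810 to 0.9850, against 0.9712 to 0.9772 for replicates 1 and 3. It was also the B6-ChrXTMSM array closest to the B6 mean at 533 of the 717 autosomal probe sets called lower and at 128 of the 194 called higher. Germ cell (Dazl, Ddx4), Sertoli cell (Amh, Sox9) and Leydig cell (Star, Cyp17a1) markers were above the signal of 10 used as the floor in both strains. Below it were 14 of 18 spermatid markers and every listed autosomal lymphocyte, erythroid and epididymis marker with a probe set of its own.

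Autosomal transcripts differed in both directions and were more often lower in B6-ChrXTMSM testes. Probe sets entered the test when either strain averaged above a signal of 10, which left 16638 probe sets of 9802 autosomal genes, and one was called when limma's moderated test gave an adjusted p under 0.05 (Benjamini-Hochberg over all kept probe sets) and the fold change reached 1.5. On these terms 194 probe sets (1.17%; 155 genes) were higher and 717 (4.31%; 622 genes) were lower in B6-ChrXTMSM than in B6 testes, and no gene had calls both ways. Without the fold threshold 3459 were higher and 3460 lower (20.8% each), and the median difference over all autosomal probe sets was 0.02. That balance changed with the scaling, to 4120 higher and 3026 lower once array medians were subtracted and to 3836 and 3346 after another quantile normalization. At a fold change of at least 2, 34 were higher and 190 lower. In 715 of the 717 lower and all 194 higher probe sets the 3 arrays of one strain did not overlap those of the other, beside 55.0% of all autosomal probe sets kept. Lower calls made up 78.7% of all calls, and 74.5% once array medians were subtracted.

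Calls came from every autosome and mostly from the class of lowest signal. Lower calls took between 2.65% (chromosome 17) and 5.64% (chromosome 9) of the kept probe sets of an autosome, and higher calls between 0.169% (chromosome 19) and 2.61% (chromosome 13). That class, in which the stronger strain averaged 10 to 100, held 156 of the 194 higher and 612 of the 717 lower calls. In it 1.28% of probe sets were higher and 5.01% lower, and among those of 100 to 1000, 0.895% and 2.45%. Above 1000, 1 of 172 probe sets was called, lower. Signal below 10 in the weaker strain applied to 54 of the 194 higher and 191 of the 717 lower calls.

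**Figure D1:**
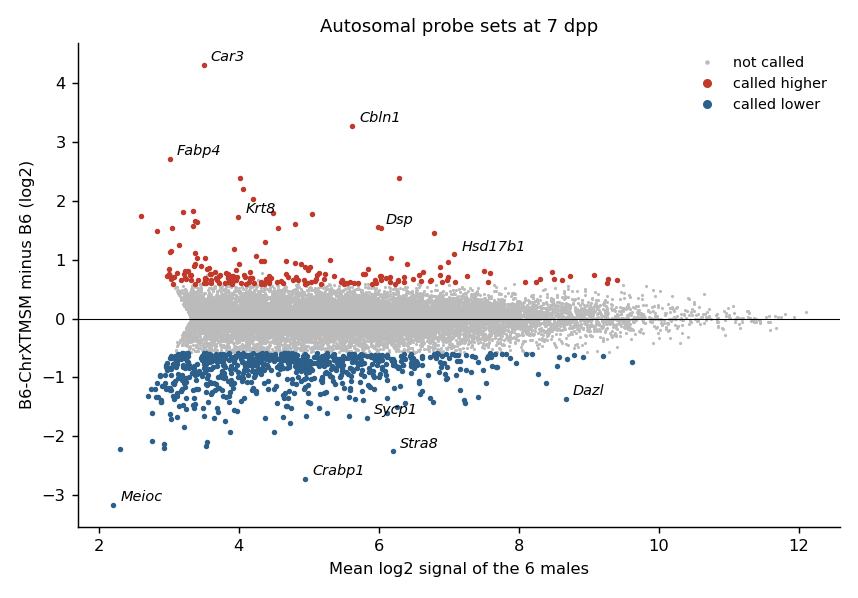
Mean log2 signal of the 6 testes (horizontal axis) against the log2 difference B6-ChrXTMSM minus B6 (vertical axis) for the 16638 autosomal probe sets kept; coloured points are the 194 called higher and the 717 called lower. Most called points lie at low signal, as do most of the probe sets kept, and lower calls outnumber higher ones.

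The transcripts lowest relative to B6 included genes that take spermatogonia into meiosis. Meioc (chr11:102665351-102682240, GRCm38.p6), which acts in meiotic entry together with the RNA helicase Ythdc2, had log2 signals of 0.39, 0.88 and 0.59 in B6-ChrXTMSM testes, against 3.52, 4.03 and 3.81 in B6 testes. All 3 B6-ChrXTMSM arrays were near the array's floor and none overlapped B6. The difference was -3.17 ± 0.15 (SE), with an adjusted p of 3.87e-05, but its size is not exact, since the B6-ChrXTMSM mean lay below the floor of 10 (3.32 on the log2 scale). Stra8 (chr6:34920163-34939344), the retinoic acid-induced gatekeeper of meiosis, gave 4.58, 5.69 and 4.95 in B6-ChrXTMSM, against 7.18, 7.49 and 7.31 in B6. Replicate 2 was the highest of the B6-ChrXTMSM testes and still lay below every B6 testis. Stra8 was 4.77-fold lower (adjusted p = 0.000542). Dmrtb1 (chr4:107676288-107704011), a transcription factor of the switch from mitosis to meiosis, was lower with 1.91, 1.78 and 1.80 in B6-ChrXTMSM, below the floor, against 4.12, 4.0 and 3.98 in B6 (adjusted p = 3.59e-06, limma). Likewise below the floor in B6-ChrXTMSM were Hormad1, Syce3, Bard1, Ccnb1ip1, Lin28a, Lmo1, Pou3f1, Runx3, Slc27a2, Zswim5, Ugt8a, Tfrc, Rab11fip4, Cdkn2a, Chtf18, Ascl2 and Nxf3, and in B6 the higher genes Cnmd, Zg16, Pnmt, A330076H08Rik, Kcnh1, Krt8, Krt18, Fam155a, Wnt4, Aspn, Car3 and Fabp4. The differences given for these genes are likewise not exact in size.

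Of the genes listed for this switch, 12 had a probe set of sufficient signal, and 8 of them were called lower and none higher, beside 3.56% lower and 1.31% higher among all 9802 autosomal genes tested with 1 probe set each. Their median difference was -1.13, against 0.02 over all genes. Besides those 3 genes, the transcription factors Sohlh1 and Sohlh2, needed for spermatogonial differentiation, were lower, with differences of -1.49 and -0.88. Rbm46, an RNA-binding protein of meiotic entry, differed by -1.38, Tcfl5 by -1.29 and Taf4b, a germ cell variant of a TFIID subunit, by -0.96. Ythdc2 itself, the partner of Meioc, differed by -0.38 and Dmrt1 by -0.42, both short of the fold threshold, and Bmp4 and Cyp26b1 were not called (0.28 and -0.03). When both strains had to exceed the floor, 10 genes of this list were kept, 6 of them lower, and the median was -0.92.

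Genes of the synaptonemal complex and of meiotic cohesin were lower almost throughout. Of 12 kept, 11 were called lower, with a median of -1.52, beside 3.56% lower among all autosomal genes. With both strains above the floor, 9 of 10 were lower and the median was -1.52. Sycp1, the transverse filament protein, had 4.70, 5.49 and 4.79 in B6-ChrXTMSM testes against 6.52, 6.81 and 6.70 in B6 testes (-1.68 ± 0.19, adjusted p = 0.000642). Sycp2, Sycp3 and Stag3, of the lateral element and the meiotic cohesin complex, differed by -1.52, -1.60 and -1.52. Among the others, Smc1b, a meiotic cohesin subunit, differed by -1.60, Tex12 by -1.65, Syce3 by -1.56 and Syce1 by -1.41, the last 3 being central element proteins. Hormad1, which marks unsynapsed axes, read 2.34, 2.73 and 2.70 in B6-ChrXTMSM against 3.67, 3.86 and 3.81 in B6 (-1.19, adjusted p = 0.000291, limma). Only Trip13, an ATPase that removes the HORMA domain proteins, was not called in this list (-0.34). The mean over the list was 4.49, 5.24 and 4.73 in the 3 B6-ChrXTMSM testes, against 5.99, 6.17 and 6.15 in the 3 B6 testes, so that replicate 2 was again the highest of its strain.

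Promoter windows of genes called lower were scanned for 2 motifs, CACGTG, the E-box that MAX and its partners bind, and GCGGGAA, the site of E2F factors, each on both strands and not overlapping in sequence. Windows ran from 250 bases before to 50 after the start of each RefSeq transcript (GRCm38.p6) and were at hand for 521 of 622 genes called lower, for 110 of 155 called higher and for 7966 of all 9802. CACGTG was in 95 of 670 windows of genes called lower (14.2%), in 11 of 137 windows of genes called higher (8.03%) and in 1048 of all 10232 (10.2%). GCGGGAA was in 76 windows of genes called lower (11.3%), 10 of genes called higher (7.30%) and 882 of all (8.62%). Promoters of 4 meiotic and piRNA genes called lower follow, shown 5' to 3' on the gene's strand because each holds a match, with the matches in capitals. The window shown is the first with a match, and distances count from the start of its transcript. In Meioc and Tdrd9 that start lies inside the gene interval given in the text, downstream of the gene's first base. The Meioc match also lies inside that interval.
Meioc (chr11:102665335-102665634, + strand, 1 E2F match 228 bases before the start): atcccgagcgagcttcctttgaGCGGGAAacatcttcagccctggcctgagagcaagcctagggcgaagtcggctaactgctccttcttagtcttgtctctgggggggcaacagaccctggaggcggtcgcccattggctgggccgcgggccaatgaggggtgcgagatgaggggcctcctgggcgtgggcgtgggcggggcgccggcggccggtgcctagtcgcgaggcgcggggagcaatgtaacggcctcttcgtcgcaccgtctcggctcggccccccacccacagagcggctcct
Tdrd9 (chr12:111971309-111971608, + strand, E-boxes 165 and 95 bases before the start): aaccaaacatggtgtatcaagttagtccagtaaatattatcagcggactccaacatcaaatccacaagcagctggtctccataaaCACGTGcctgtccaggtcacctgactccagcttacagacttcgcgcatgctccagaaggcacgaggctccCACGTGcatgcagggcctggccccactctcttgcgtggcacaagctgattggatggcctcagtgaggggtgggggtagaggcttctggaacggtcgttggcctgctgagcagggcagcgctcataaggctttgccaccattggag
Sycp1 (chr3:102936051-102936350, - strand, E-box 94 bases before the start): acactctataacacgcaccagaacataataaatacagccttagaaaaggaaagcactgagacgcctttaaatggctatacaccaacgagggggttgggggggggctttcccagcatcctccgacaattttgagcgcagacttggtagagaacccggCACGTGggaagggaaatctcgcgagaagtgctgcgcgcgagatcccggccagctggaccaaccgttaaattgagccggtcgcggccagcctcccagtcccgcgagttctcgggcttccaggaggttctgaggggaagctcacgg
Hormad1 (chr3:95559427-95559726, + strand, E2F match 95 and E-boxes 57 and 20 bases before the start): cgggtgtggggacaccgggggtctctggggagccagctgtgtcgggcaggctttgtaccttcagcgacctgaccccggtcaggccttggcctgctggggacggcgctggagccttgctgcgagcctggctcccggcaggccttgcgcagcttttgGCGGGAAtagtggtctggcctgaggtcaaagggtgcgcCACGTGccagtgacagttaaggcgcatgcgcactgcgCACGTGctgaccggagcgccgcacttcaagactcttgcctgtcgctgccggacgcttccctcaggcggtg
A match is a sequence description, and neither binding nor activity at these windows was measured.

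Of 12 recombination genes kept, 5 were lower and none higher, with a median of -0.56. With both strains above the floor, 3 of 10 were lower and the median was -0.44. The list held 34 genes, of which 13 were below the floor and 9 had no probe set of their own. The shares over all autosomal genes were 3.56% lower and 1.31% higher. The log2 difference was -1.69 for Bard1, partner of Brca1 in repair, -1.57 for Ccnb1ip1, a crossover factor, and -1.42 for Tex15, which also acts in transposon silencing. It was -1.23 for Rec114, needed for the making of meiotic breaks, and -0.79 for Fancd2, a protein of crosslink repair. Dmc1, the meiotic strand-exchange recombinase, was not called with the probe set of higher signal (-0.11), while another Dmc1 probe set was lower (-1.31, adjusted p = 0.000553). Brca2 (-0.35), Mlh3 (-0.06), Psmc3ip (0.04) and Mnd1 (0.17) were not called.

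The piRNA pathway was lower nearly throughout, 17 of 20 kept genes with none higher and a median of -1.03. With both strains above the floor, 15 of 18 were lower and the median was -0.99. The shares over all autosomal genes were 3.56% lower and 1.31% higher. Tdrd9 (chr12:111971488-112068854), a helicase that acts with PIWI proteins, had 3.09, 4.18 and 3.34 in B6-ChrXTMSM testes, against 5.46, 5.47 and 5.47 in B6 testes. Those of B6-ChrXTMSM spread over more than 1 unit without reaching the B6 values, which were nearly equal. Tdrd9 differed by -1.93 (adjusted p = 0.000846), Piwil2, the PIWI protein of spermatogonia, by -1.44 and the helicase Mov10l1 by -1.35. The tudor protein Rnf17, with its strongest probe set, differed by -1.36 and Mael by -1.22. Pld6, the mitochondrial nuclease of this pathway, differed by -0.70, and Ddx4, the germ cell helicase known as VASA, by -0.91. Tdrd5, Tdrd7 and the transcription factor Mybl1 were not called (-0.57, -0.43 and 0.43). The list mean was 4.45, 5.11 and 4.6 in B6-ChrXTMSM testes, against 5.65, 5.71 and 5.74 in B6 testes.

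Other germ cell RNA-binding proteins were also lower, with 12 of 15 kept genes lower, none higher and a median of -1.18. With both strains above the floor, 10 of 13 were lower and the median was -1.14. Over all autosomal genes 3.56% were lower and 1.31% higher. Dazl, the germ cell identity and translation factor, read 7.73, 8.38 and 7.87 in B6-ChrXTMSM against 9.21, 9.41 and 9.44 in B6. It was 2.57-fold lower (adjusted p = 0.000641, limma). Elavl2 differed by -1.14 and Cpeb1, a regulator of poly(A) tail length, by -1.18, while Lin28a, which blocks let-7 maturation, gave -1.85 ± 0.26 with 1.75, 3.0 and 2.11 in B6-ChrXTMSM against 4.13, 4.14 and 4.12 in B6 (adjusted p = 0.00148). Igf2bp1 was not called with its strongest probe set (-0.06), and both of its others were lower (-1.01 and -0.99).

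Markers of undifferentiated spermatogonia split. Of 14 kept, 5 were lower, 0 higher, and the median was -0.13, beside 3.56% lower and 1.31% higher among all autosomal genes. With both strains above the floor, 3 of 10 were lower and the median was again -0.13. Zbtb16 (-1.14), Sall4 (-1.18), Lin28a (-1.85), Uchl1 (-1.23) and Pou3f1 (-0.98) were lower, whereas Gfra1, the GDNF co-receptor of stem cells, was not called at -0.08. Its log2 level was 4.18 ± 0.26 in B6-ChrXTMSM and 4.25 ± 0.09 in B6 testes (SD, n = 3 each). Ret (0.30), Id4 (0.18) and Lhx1 (0.35) were not called either, and Etv5, a GDNF-responsive factor, passed the test at a fold under the threshold (0.43, adjusted p = 0.00161). Of 13 markers of differentiating spermatogonia 10 were lower and 1, the cyclin Ccnd2, was higher, with a median of -1.18. With both strains above the floor, 8 of 11 were lower and 1 higher, and the median was -1.15. Some of these genes, such as Dmrtb1, also stood in the lists above. Kit, the receptor that marks differentiating spermatogonia, differed by -1.15, Crabp1, a retinoic acid-binding protein, by -2.73, the LIM-domain protein Lmo1 by -1.70 and Dnmt3b, a de novo DNA methyltransferase, by -1.03. Crabp1 had 2.98, 4.36 and 3.42 in B6-ChrXTMSM testes, against 6.12, 6.52 and 6.31 in B6 testes. Again replicate 2 was highest of the B6-ChrXTMSM males, and the groups did not overlap.

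Among the other strongest lower genes were Runx3, Slc27a2, Zswim5, Ugt8a, Tfrc, Rbp4 and Rab11fip4. Slc27a2 (chr2:126553024-126588243), a fatty acid transporter and activating enzyme, had 1.63, 2.04 and 1.90 in B6-ChrXTMSM testes against 3.98, 4.02 and 3.98 in B6 testes (-2.14 ± 0.10, adjusted p = 3.5e-05). The transcription factor Runx3 differed by -2.22 (adjusted p = 0.0001), Zswim5 by -2.17 and Ugt8a, which makes galactolipids, by -2.10. Rbp4, the retinol carrier, differed by -1.77, with 3.75, 4.08 and 3.68 in B6-ChrXTMSM and 5.49, 5.55 and 5.80 in B6. Of 13 kept members of the retinoic acid pathway Crabp1 and Rbp4 were lower and the alcohol dehydrogenase Adh1 higher (0.62), with a median of -0.08. Over all autosomal genes 3.56% were lower and 1.31% higher. Adh1 fell under the fold threshold without B6-ChrXTMSM replicate 3 (0.58) or B6 replicate 2 (0.57). The synthesis enzymes Aldh1a1 and Aldh1a2 (0.22 and -0.25), the degrading enzyme Cyp26b1 (-0.03) and the receptor Rarg (-0.24) were not called. Tfrc, the transferrin receptor, was lower with 2 of its 3 probe sets (-1.93 and -1.51) and not with the strongest (-0.20), and Rab11fip4 was lower with 1 of 3.

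Of 42 ribosome biogenesis factors kept, 10 were called lower and none higher, beside 3.56% lower and 1.31% higher among all autosomal genes, and the median was -0.31. At any fold 31 passed the adjusted p in the lower direction, beside 1931 of all 9802 genes (19.7%). The largest were Noc3l (-0.98), Sdad1 (-0.94), Rrp12 (-0.89) and Mdn1 (-0.82), all of which take part in making or exporting ribosomal subunits. Without B6-ChrXTMSM replicate 1 the count was 6. Cytosolic ribosomal proteins had 1 call of 41, the germ cell paralog Rpl39l (-1.09), and a median of 0.01. Among DNA methylation enzymes Dnmt3b (-1.03) and the helicase Hells (-0.80) were lower of 9 kept, and Hells was called with 1 of its 3 probe sets. Of the 16 kept genes listed with the PRC1.6 repressor, 1 was called, Pcgf5 (-1.43), a Polycomb gene that is not particular to PRC1.6. Of 36 ubiquitin-specific proteases 1 was called, Usp24 (-1.34). Both were lower, each with another probe set near 0 (-0.13 and 0.00). The metallothioneins Mt1 and Mt2 were lower, at -0.75 and -0.94, and so was Ccnd1, a D-type cyclin, at -0.86.

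Among the higher genes with the largest differences was a pair of cerebellins. Cbln1 (chr8:87468853-87472592), a secreted synaptic organiser of the cerebellin family, had 7.22, 6.94 and 7.61 in B6-ChrXTMSM testes, against 3.92, 4.09 and 3.94 in B6 testes. Each B6-ChrXTMSM testis exceeded every B6 testis by more than 2 units. The difference was 3.27 ± 0.15 (9.68-fold, adjusted p = 3.5e-05), and the 2 further Cbln1 probe sets gave 2.39 and 2.40. Its relative Cbln4 had 5.87, 5.83 and 6.11 in B6-ChrXTMSM against 4.13, 4.43 and 3.90 in B6 (1.78 ± 0.13, 3.44-fold, adjusted p = 0.000173). Zg16, a lectin of secretory granules, differed by 2.04, Cnmd, the cartilage protein chondromodulin, by 2.20, Pnmt, the enzyme that methylates noradrenaline, by 1.82 and Adamts16, a secreted protease, by 1.61. The second Pnmt probe set gave 0.51. Kcnh1, a potassium channel, and the transcripts A330076H08Rik and Fam155a differed by 1.75, 1.81 and 1.48.

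**Figure D2:**
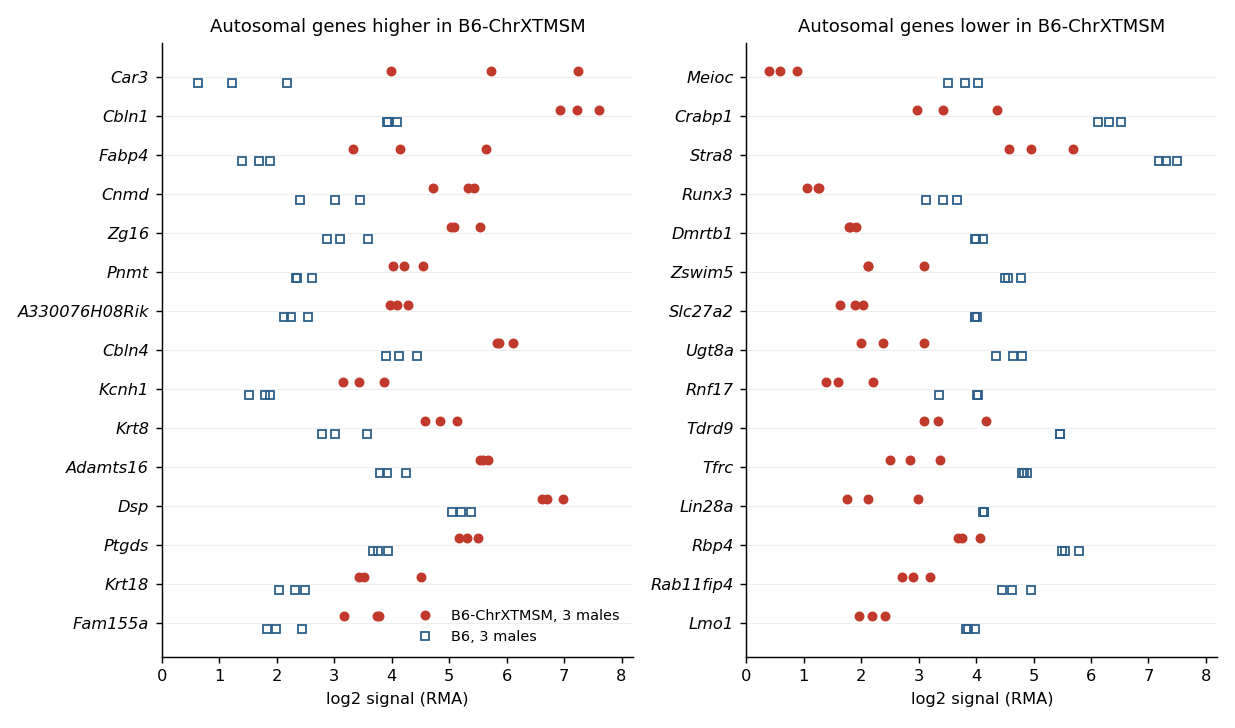
Log2 signal in each of the 3 B6-ChrXTMSM and 3 B6 testes at 7 dpp (points), for the 15 autosomal genes with the largest higher and the 15 with the largest lower fold change among calls whose groups did not overlap. The 3 points of one strain lie apart from those of the other in every gene drawn, and B6-ChrXTMSM replicate 2 lies nearest to B6 in most of the lower genes.

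Epithelial keratins and desmosome proteins were higher. Krt8 (chr15:101996711-102004342) and Krt18, the paired keratins of simple epithelia, gave 4.83, 4.58 and 5.14 and 3.53, 3.43 and 4.5 in B6-ChrXTMSM testes. The corresponding B6 values were 3.01, 3.57 and 2.79 for Krt8 and 2.04, 2.32 and 2.50 for Krt18. Both were higher in all 3 B6-ChrXTMSM testes, by 1.73 (adjusted p = 0.000742) and 1.53 (0.00292). Dsp (chr13:38151294-38198577), the desmosomal plaque protein desmoplakin, was higher by 1.55 and the desmosomal cadherin Dsg2 by 1.30, with 5.03, 4.85 and 5.18 in B6-ChrXTMSM against 3.58, 3.69 and 3.89 in B6. Of 7 kept genes in this list 4 were higher and none lower, with a median of 1.30, beside 1.31% higher and 3.56% lower among all autosomal genes. Pkp2 (0.23), Pkp4 (0.28) and Dsc2 (0.43) were not called. Krt7, Krt19, Jup and the others of the list were below the floor. Krt8 and Krt18 were below it in B6. When both strains had to exceed it, 5 genes were kept, 2 of them higher, and the median was 0.43.

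Sertoli cell genes were mostly not called, with 3 of 24 higher and 1 lower, beside 1.31% higher and 3.56% lower among all autosomal genes. At any fold 14 passed the adjusted p in the higher direction, beside 2150 of all 9802 genes (21.9%), and the list median was 0.22. The higher ones were Ptgds, Hsd17b1 and Inhba, and the lower one was the tight junction claudin Cldn11. Ptgds, a prostaglandin synthase, read 7.57, 7.24 and 7.72 in B6-ChrXTMSM testes against 5.98, 6.25 and 5.94 in B6 testes (1.46 ± 0.13, adjusted p = 0.000281). Hsd17b1, an oestrogen-forming enzyme, differed by 1.09 and Inhba, the activin subunit, by 0.72, with 7.69, 7.57 and 7.59 in B6-ChrXTMSM against 6.80, 7.04 and 6.86 in B6. None of these groups overlapped, as in all 194 higher calls. Cldn11 differed by -0.61, and by -0.55 without B6-ChrXTMSM replicate 3 and -0.58 without B6 replicate 3, both under the fold threshold. In the fit over all 38 arrays Cldn11 lost its call (adjusted p = 0.0707, limma). The regulators Sox9, Wt1 and Gata4 were at -0.10, -0.01 and 0.26, and Amh, the Mullerian inhibiting hormone, at 0.45. The list mean was 8.02, 7.95 and 8.0 in B6-ChrXTMSM testes and 7.77, 7.72 and 7.76 in B6 testes. Fshr (0.47) and Inha (0.45) passed the test but not the fold.

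Leydig cell and steroid synthesis genes were higher in 5 of 11 and lower in none, with a median of 0.39. Over all autosomal genes 1.31% were higher and 3.56% lower. Hsd17b3, which makes testosterone in adult Leydig cells and is made by fetal Sertoli cells, had 7.98, 7.88 and 8.09 in B6-ChrXTMSM testes against 7.12, 7.28 and 7.23 in B6 testes (0.78 ± 0.07, adjusted p = 0.000328). Akr1c14, a hydroxysteroid dehydrogenase, differed by 0.72, the side-chain cleavage enzyme Cyp11a1 by 0.72, Hsd3b1 by 0.66 and Cyp1b1 by 0.66. Each of these lay above B6 in all 3 B6-ChrXTMSM testes, as did all 194 higher calls. Cyp1b1 fell under the fold threshold without B6-ChrXTMSM replicate 3 (0.58). Star, the cholesterol importer, differed by -0.12 with 5.76 ± 1.30 in B6-ChrXTMSM and 5.88 ± 0.38 in B6 testes (SD, n = 3 each), which the spread does not separate. Cyp17a1 (0.16) and Nr5a1 (0.39) were not called. The list means were 6.76, 6.66 and 7.13 in B6-ChrXTMSM and 6.46, 6.42 and 6.55 in B6.

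Stromal matrix genes had 5 of 26 higher and none lower (median 0.21), beside 1.31% higher and 3.56% lower among all autosomal genes. Col25a1, a membrane collagen, differed by 0.98 (5.16, 4.92 and 5.44 in B6-ChrXTMSM, against 4.15, 4.02 and 4.40 in B6), Fap by 0.65, the proteoglycan Aspn by 0.67, Mmp2 by 0.61 and Col23a1 by 0.60. The fibrillar collagens Col1a1, Col1a2 and Col3a1 lay at -0.06, -0.02 and 0.01. No basement membrane gene of 15 was called, while 6 passed limma's adjusted p higher and 1 lower at any fold. Over all autosomal genes 21.9% passed it higher and 19.7% lower. The stromal count fell to 2 without B6-ChrXTMSM replicate 3, which left Mmp2 at 0.58 and Col23a1 at 0.58. Without B6 replicate 3 Mmp2 was at 0.54, and Col23a1 was at 0.56 without B6-ChrXTMSM replicate 1 and 0.55 without B6 replicate 1. The other strongly expressed higher genes, those above a signal of 100, were Igfbp5 (1.03), an insulin-like growth factor-binding protein, Lgals7 (0.97), a galectin, Vnn1 (0.92), a pantetheinase, the aminopeptidase Enpep (0.88), the calcium-binding protein Tesc (0.81) and Ccnd2 (0.80). Igfbp5 had a second probe set that did not differ (-0.01), and 6 of 7 Ccnd2 probe sets were higher.

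Signalling lists held few calls, to be read beside the 1.31% higher and 3.56% lower among all autosomal genes. Igfbp5 was the one called of 14 genes of the insulin-like growth factor axis, with Igf1 (0.51) and Igf2 (0.27) not called. Of 27 genes of the inhibin, activin and TGF-beta family Inhba was the 1 called, of 11 hedgehog genes the Hedgehog-binding protein Hhip (0.60), and of 24 WNT genes 2 were higher (Sfrp4, 0.68 and Wnt4, 0.59) and 2 lower (the antagonist Frzb, -0.73, and the co-repressor Tle3, -0.76). Cell cycle control showed Ccnd2 higher and Ccnd1 and Cdkn2a (-1.60) lower of 18, whereas none of 27 mitosis genes and 2 of 33 DNA replication genes were called, both lower (Orc1, -0.81, and Chtf18, -0.84). The median of the mitosis genes was 0.03, and at any fold 8 passed limma's adjusted p higher and 6 lower. Cholesterol synthesis genes gave no call of 18, with 2 genes past the adjusted p higher and 6 lower at any fold. The any-fold counts of both lists stand beside 21.9% higher and 19.7% lower over all autosomal genes. Of 21 imprinted genes 3 were higher, Mest (0.64), Slc38a4 (0.69) and Mirg (0.70), and 2 lower, Sfmbt2 (-1.07) and Ascl2 (-1.32), with a median of 0.33. Single males decided 3 of these calls, since without B6-ChrXTMSM replicate 3 Hhip was at 0.54, Wnt4 at 0.52 and Mirg at 0.54, and without B6 replicate 3 Hhip was at 0.57 and Wnt4 at 0.50, all under the fold threshold.

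**Figure D3:**
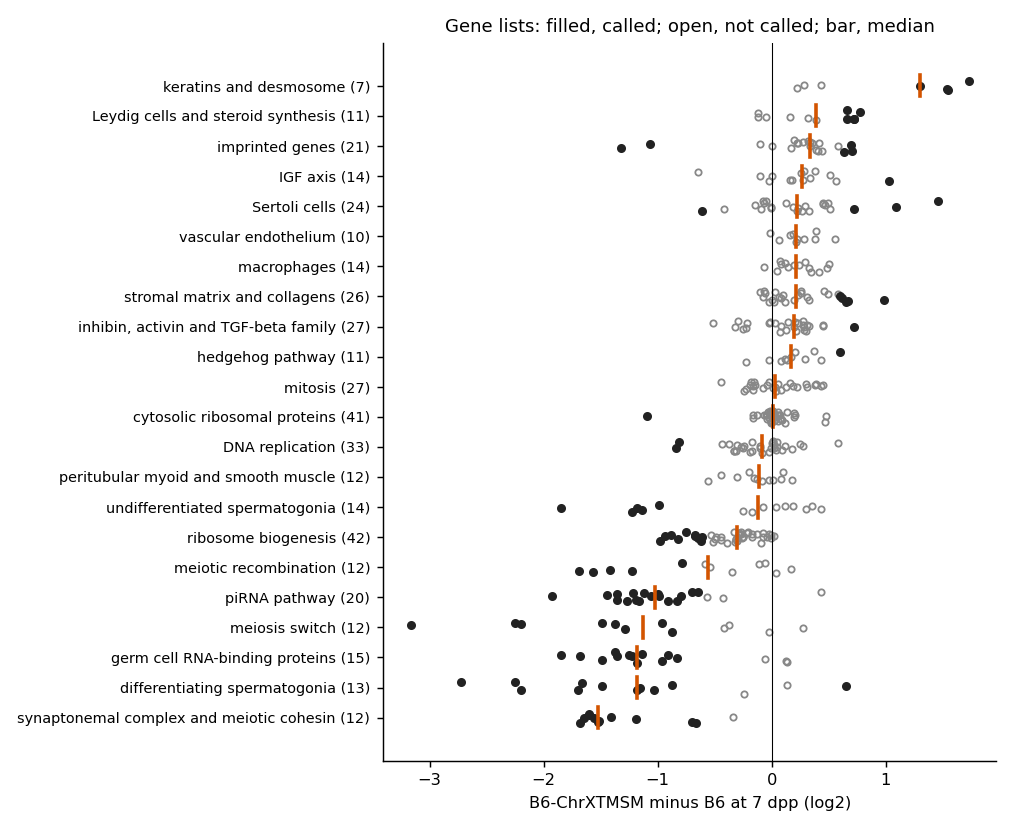
Log2 difference B6-ChrXTMSM minus B6 at 7 dpp (horizontal axis) of every kept member (points, filled where called) of 22 gene lists; bars are list medians. The germ cell lists have medians between -1.52 and -0.13, and the keratin and desmosome list one of 1.30, or 0.43 over the 5 members above the floor in both strains.

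**Figure D4:**
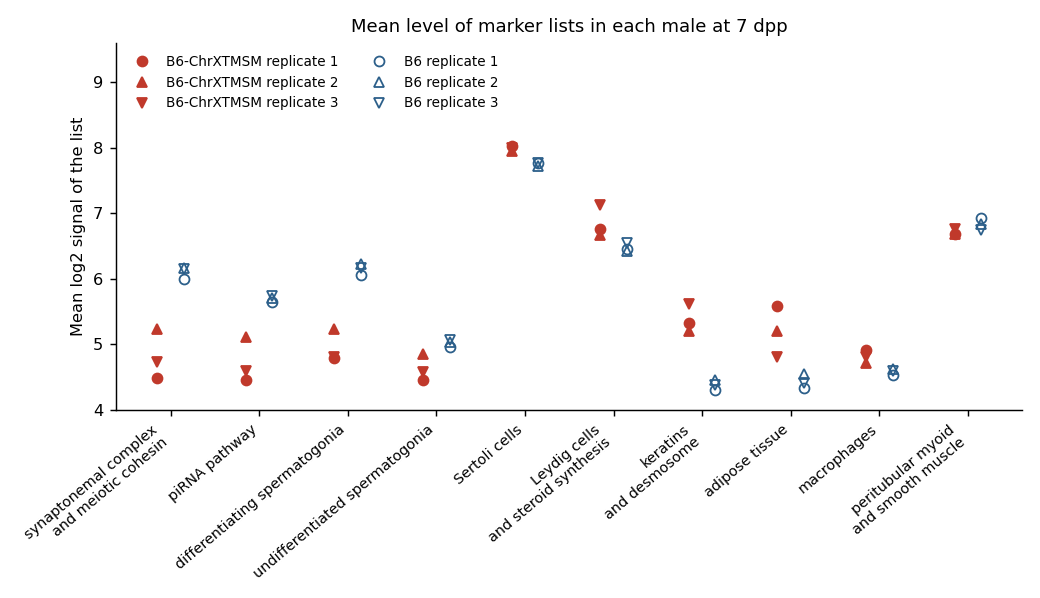
Mean log2 signal over the kept members of 10 lists in each of the 3 B6-ChrXTMSM and 3 B6 testes. In the synaptonemal complex and piRNA lists B6-ChrXTMSM replicate 2 lies highest of its strain, at 5.24 and 5.11, and still below the B6 testes.

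Genes of fat tissue varied between males of 1 strain. Car3, carbonic anhydrase of fat and muscle, differed widely between males, with 7.25, 5.72 and 3.99 in B6-ChrXTMSM testes against 0.62, 2.18 and 1.22 in B6 testes, all 3 below the floor (4.31 ± 0.73, adjusted p = 0.00288). Fabp4, the fatty acid carrier of adipocytes, gave 5.64, 4.14 and 3.33 in B6-ChrXTMSM against 1.69, 1.89 and 1.39 in B6 (2.71 ± 0.49, 0.00365). Both were highest in B6-ChrXTMSM replicate 1 and lowest in replicate 3, and neither overlapped between strains. At 5 dpp, Car3 was 2.60, 1.79 and 8.78 in B6-ChrXTMSM and 10.56, 9.72 and 4.68 in B6 testes. Adipoq, the adipocyte hormone adiponectin, was under the floor at 7 dpp, with 3.58, 2.65 and 1.22 in B6-ChrXTMSM against 1.37, 1.10 and 0.59 in B6. In all, 10 of the listed fat genes with a probe set of their own were under the floor. Of 9 kept 2 were higher and Dgat2 (-1.15) lower, beside 1.31% higher and 3.56% lower among all autosomal genes. The list median was 0.44, or -0.12 over the 5 above the floor in both strains. The list mean was 5.59, 5.21 and 4.81 in B6-ChrXTMSM against 4.34, 4.55 and 4.41 in B6. In a fit over all 38 arrays Car3 and Fabp4 lost their calls (adjusted p = 0.143 and 0.201), as they did over all 7 dpp arrays (0.0636 and 0.104). The keratin list mean was 5.33, 5.21 and 5.62 in B6-ChrXTMSM against 4.31, 4.45 and 4.38 in B6, and the part of fat tissue in the other higher calls was not tested.

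Other cell types showed few calls, to be read beside the 1.31% higher and 3.56% lower among all autosomal genes. Of 12 peritubular, 10 endothelial and 14 macrophage markers none was called at a fold of 1.5, with medians of -0.11, 0.22 and 0.21. At any fold, limma's adjusted p was passed by 4 peritubular genes, all lower, and by 5 endothelial and 7 macrophage genes, all higher. Over all autosomal genes 21.9% passed it higher and 19.7% lower. Among mesothelial markers Upk3b (0.72) was higher and Bnc1 (-1.17), which germ cells also express, lower of 4 kept, and of skeletal muscle genes only Tnni1 (0.92) passed the floor. Erbb3 (-0.59), a Schwann cell receptor, was lower and 11 interferon-induced genes held 2 higher, Ifit2 (0.65) and Ifitm2 (0.62). Upk3b was no longer called without B6-ChrXTMSM replicate 1 (0.64, adjusted p = 0.0621) or replicate 3 (0.73, 0.0553), or without B6 replicate 3 (0.47). Erbb3 was at -0.54 without B6-ChrXTMSM replicate 3 and -0.51 without B6 replicate 3, and Ifitm2 at 0.58 without B6 replicate 1, under the fold threshold. Erbb3 was also under it once array medians were subtracted (-0.56) and after another quantile normalization (-0.57). In the fit over all 38 arrays Erbb3 (adjusted p = 0.0712, limma) and Upk3b (0.0675) lost their calls.

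The strain difference at 7 dpp was compared with that at 5 dpp by a strain-by-age term over 12 arrays. By limma, 354 autosomal probe sets (2.09% of 16936) had a more positive and 490 (2.89%) a more negative difference at 7 dpp, with an adjusted p under 0.05 and a change of at least 1.5-fold. At 5 dpp alone the same comparison called 4 probe sets higher (0.0243%) and 13 lower (0.0789%). Cbln1 had a mean log2 signal of 7.66 in B6-ChrXTMSM and 7.82 in B6 at 5 dpp, and at 7 dpp of 7.26 in B6-ChrXTMSM and 3.98 in B6. The strain-by-age term was 3.43 (adjusted p = 4.36e-05). Krt8 (2.12), Krt18 (2.36), Dsp (1.46) and Inhba (0.95) gave the same sign, with 5 dpp levels of 5.08 and 5.47 for Krt8 in B6-ChrXTMSM and B6. Meioc was near the floor in both strains at 5 dpp, 0.59 in B6-ChrXTMSM and 0.98 in B6, and Runx3 likewise, 1.26 and 1.24. Stra8 read 4.99 in B6-ChrXTMSM and 5.61 in B6 at 5 dpp. At 7 dpp the B6-ChrXTMSM means of Stra8 and Meioc were 5.07 and 0.62, those of B6 7.33 and 3.79. Over the probe sets called at 7 dpp, the median level of the higher ones was 4.90 in B6-ChrXTMSM and 5.01 in B6 at 5 dpp, and 4.85 in B6-ChrXTMSM and 4.02 in B6 at 7 dpp. The lower ones had 4.17 and 4.36 at 5 dpp, and 4.21 and 5.02 at 7 dpp, in the same order of strains. The 7 dpp values chose these probe sets and the genes named here. The medians and the terms of these genes are therefore a description. In the fit over all 38 arrays 164 and 194 probe sets had such a term, and among the 15 genes of largest fold change each way and the 10 higher ones above a signal of 100, Car3 (adjusted p = 0.114), Krt8 (0.0773), Krt18 (0.0861), Dsp (0.0795), Fam155a (0.0691), Enpep (0.0697), Ccnd2 (0.0511), Lin28a (0.0773), Ugt8a (0.0753) and Rbp4 (0.115) lost theirs.

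**Figure D5:**
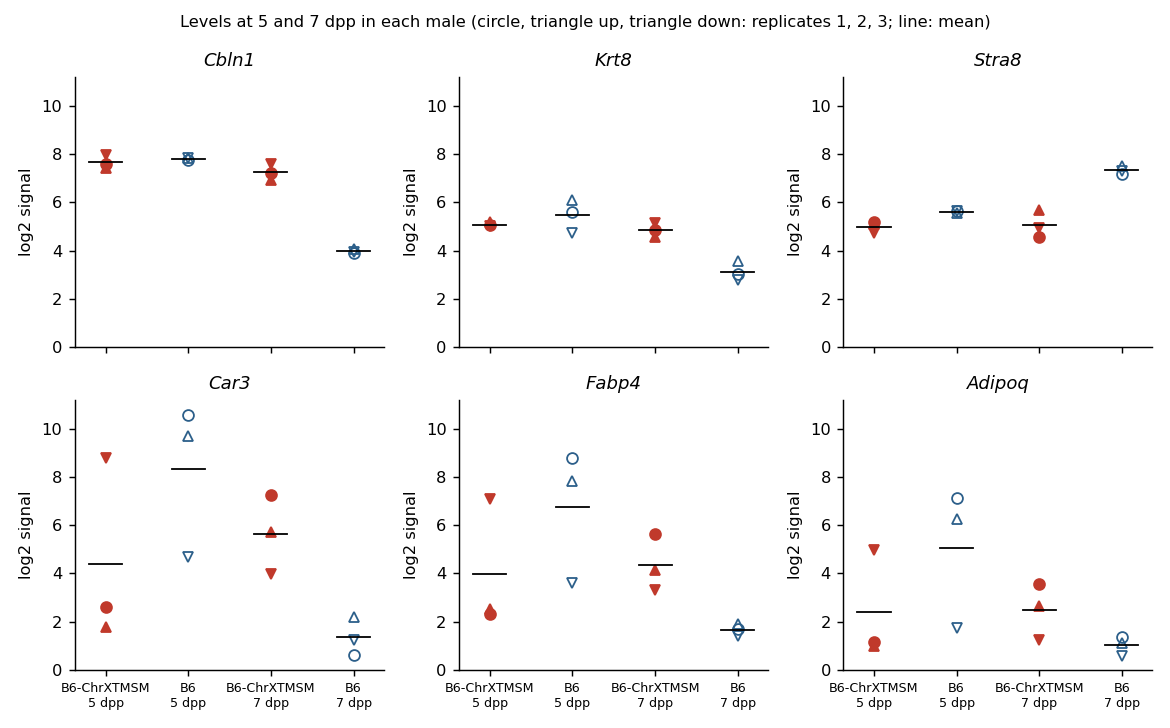
Log2 signal per male at 5 and 7 dpp in B6-ChrXTMSM and B6 testes, for Cbln1, Krt8, Stra8, Car3, Fabp4 and Adipoq. Cbln1 is near 7.66 and 7.82 in B6-ChrXTMSM and B6 at 5 dpp and differs at 7 dpp, whereas Car3, Fabp4 and Adipoq vary between males within a strain at both ages.

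Levels of the same genes in related 7 dpp strains are given side by side, since those comparisons share the 3 B6 arrays. In B6-ChrXMSM, which carries all of the MSM X chromosome, 219 autosomal probe sets (1.32%) were higher and 715 (4.30%) lower than in B6. Cbln1 averaged 7.26 in B6-ChrXTMSM, 6.97 in B6-ChrXMSM, 1.96 in MSM and 3.98 in B6, Stra8 5.07, 5.09, 6.86 and 7.33, and Meioc 0.62, 0.59, 4.42 and 3.79 in the same order. By these signals neither Cbln1 nor Meioc in B6-ChrXTMSM was at the MSM level. The list of polymorphic probe sets covered chromosomes 1 and X only. Mismatches to MSM can lower a signal, and the MSM values of these genes were not screened for them. In the (B6-ChrXTMSM x B6-Chr1MSM)F1, 8 males, 51 probe sets (0.308%) were higher and 230 (1.39%) lower than in B6. It carries a copy of MSM chromosome 1, and without the chromosome 1 probe sets listed as polymorphic, an alternative chosen after seeing the data, 45 (0.278%) were higher and 198 (1.22%) lower. The F1 males differed widely among themselves, and that spread enters the fit. Fewer calls in the F1 need not mean smaller differences. Cbln1 ran there from 3.23 through a median of 4.64 to 6.14 and Stra8 from 5.65 through 6.54 to 7.33, so that single males reached the B6 level of each gene.

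On the X chromosome, which carries the difference between the strains, probe sets listed as polymorphic between B6 and MSM were left out. Among 249 proximal probe sets kept, 3 were higher and 14 lower (6.83%), and among 242 distal ones 13 were higher and 38 lower (21.1%). Among autosomal probe sets 1.17% were higher and 4.31% lower, so the proximal share was near that of the autosomes. The parts were split by gene order, which put 5 of 344 X probe sets with a place in the paper on the wrong side. Probe sets near the boundary, which the paper left out, were kept. Nxf3, an X-linked relative of the mRNA export factor, had 1.15, 1.66 and 1.32 in B6-ChrXTMSM testes against 5.13, 4.15 and 5.10 in B6 testes (-3.42 ± 0.25). Nxf2 differed by -1.25 and Taf7l, a germ cell variant of a TFIID subunit, by -1.37, both lower.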

How the data were processed

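RNA from the testes of single males was hybridised to Affymetrix mouse genome arrays. The deposited values are log2 RMA signals that the authors made in GeneSpring GX (version not given in the sources used here), and they are already normalized between arrays; RMA draws low signals together, which shrinks fold changes near the floor. Probe sets were named through the platform annotation and RefSeq. Of 45101 probe sets, 34872 had a single gene placed on an autosome or X, and 236 X probe sets listed as polymorphic were left out.

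The main test was limma 3.58.1 (R 4.3.3), lmFit and eBayes, on the 6 arrays with no covariate, over 17129 probe sets with a mean signal above 10 in at least 1 group, with Benjamini-Hochberg adjustment over all of them. Calls were made at an adjusted p below 0.05 with 1.5-fold or more change. The strain-by-age term was fitted over 12 arrays. A gene list was counted on the probe set of highest mean signal of each gene. In simulated data with the real spread, 200 of 17129 probe sets were changed. The test gave back 43.3% of changes of 1.5-fold, which sit at the threshold, 95.5% of 2-fold and 100% of 4-fold. It made 3 wrong calls among the unchanged probe sets. In the real data 41.6% of autosomal probe sets passed the adjusted p at any fold, so these rates need not hold there. The number of arrays limits the precision.

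Genes were named by rule: the 15 higher and 15 lower genes of largest fold change with groups that did not overlap, the 10 strongest higher genes above a signal of 100, up to 4 called members of each list in each direction, members needed to describe a list, and Nxf2, Nxf3 and Taf7l. The members and the 40 gene lists (germ cell functions, cell type markers, pathways) were chosen with earlier results of these data known. Some genes stood in more than 1 germ cell list, among them Dmrtb1, Rbm46, Sall4 and Lin28a. The counts of those lists are therefore not independent. Sycp2, Sycp3, Stag3, Tex12, Syce1, Piwil2, Mael, Ddx4, Sall4, Kit, Sohlh1, Sohlh2, Tcfl5, Fancd2, Hsd3b1, Aspn and other list members outside the first 4 were named after their values were seen. Alternatives were other normalization, filters, fold thresholds, fits over more arrays, a replicate block, 1 probe set per gene, and leaving out each array in turn.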

Additional observations from a re-analysis of the deposited data

Results flagged for a closer look

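Strain differences (B6-ChrXTMSM minus B6) at 7 dpp that were not those at 5 dpp stood out by limma's strain-by-age term, which was positive in 354 and negative in 490 autosomal probe sets. The genes named here and below were chosen by their 7 dpp difference, which is part of the term. Their terms are therefore a description. Of the higher genes named above, terms on the log2 scale were 3.43 (Cbln1), 1.66 (Cbln4), 2.14 (Cnmd), 2.21 (Zg16), 1.51 (Adamts16) and 1.62 (Kcnh1). The keratins and desmoplakin had terms of 2.12 (Krt8), 2.36 (Krt18) and 1.46 (Dsp). Enzymes and other strongly expressed genes had terms of 1.58 and 1.52 (2 probe sets of Ptgds), 1.14 (Hsd17b1), 1.67 (Pnmt), 0.87 (Enpep), 1.44 (Igfbp5), 1.14 (Lgals7), 0.84 (Tesc), 0.87 (Ccnd2) and 0.95 (Inhba). The transcripts A330076H08Rik and Fam155a had terms of 2.30 and 1.30.

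Car3 had a term of 8.24 (adjusted p = 0.0381), with 4.31 at 7 dpp and mean signals of 4.39 in B6-ChrXTMSM and 8.32 in B6 at 5 dpp. It was called in 8 of 21 alternatives, with adjusted p between 0.00683 and 0.114. The part of fat tissue around the testis in this value was not tested.

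Among the lower genes the germ cell regulators had terms of -2.78 (Meioc), -1.63 (Stra8), -2.05 (Dmrtb1), -1.43 (Lmo1), -1.37 (Lin28a), -1.49 (Tdrd9) and -2.04 (Rnf17). The Rnf17 term is that of a probe set below the floor in B6-ChrXTMSM, so its size is not exact. With the strongest Rnf17 probe set the term was -1.20. The retinoid carriers had terms of -1.91 (Crabp1) and -1.05 (Rbp4). The others had -2.24 (Runx3), -1.95 (Slc27a2), -1.93 (Zswim5), -1.57 (Ugt8a), -1.66 (Tfrc) and -1.49 (Rab11fip4). In these genes B6-ChrXTMSM and B6 lay between 0.02 and 0.82 apart in mean at 5 dpp, all but Runx3 with the lower mean in B6-ChrXTMSM. With the probe sets used, both strains were below the floor at 5 dpp in all of them but Stra8, Tdrd9, Crabp1 and Rbp4. Gaps below the floor are not exact in size or direction. In the fit over all 38 arrays the terms of Krt8 (adjusted p = 0.0773), Krt18 (0.0861), Dsp (0.0795), Fam155a (0.0691), Enpep (0.0697), Ccnd2 (0.0511), Lin28a (0.0773), Ugt8a (0.0753), Rbp4 (0.115) and Car3 (0.114) were not called.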

How the results depend on the processing

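No named gene changed sign in the alternatives run, but balances and medians did. The lower surplus on the proximal X and the more negative surplus of the strain-by-age term turned with no fold threshold (counts below), the adipose tissue median, 0.44, was -0.12 with both groups above the floor, and the mesothelium median, 0.32, was -1.18 for the 1 gene left with the floor at 20. The autosomal counts, 194 higher and 717 lower, were 128 and 349 with 1 probe set per gene, 3459 and 3460 with no fold threshold and 34 and 190 at a fold of at least 2, and the higher count was 126 with the floor at a signal of 20; the lower share of calls was 50% with no fold threshold and 84.8% at 2-fold. The cause was not tested. Leaving out single arrays gave 159 (without B6-ChrXTMSM replicate 3) to 262 (without replicate 2) higher and 654 (without replicate 1) to 817 (without replicate 2) lower. The strain-by-age counts, 354 and 490, were 164 and 194 over all 38 arrays, 1985 and 1830 with no fold threshold and 62 and 111 at 2-fold, and 262 to 472 and 403 to 595 without single arrays. On the X, proximal higher and lower counts, 3 and 14, were 92 and 39 with no fold threshold, the higher one 1 with 1 probe set per gene and 0 at 2-fold. Distal counts, 13 and 38, were 74 and 73 with no fold threshold and 7 and 22 with both groups above the floor, the higher one 8 with 1 probe set per gene and 7 at 2-fold. Without single arrays they were 2 to 4 and 13 to 17 (proximal), 12 to 15 and 37 to 41 (distal). Of values for named genes 1915 kept their call and 32 lost it, and of list counts 1339 stayed within 1.5 times and 67 did not. The age term could not be fitted over 7 dpp arrays alone.

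Same-numbered males deviated from their group means with correlations of 0.123, 0.008 and 0.016, and 4 of 6 samples correlated best with their own number, so the numbers were not taken to pair the males. With the replicate number as a block, 194 probe sets were higher and 716 lower. Low signals and 3 males a group limit the precision of differences near 1.5-fold.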

Other observations

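Several listed genes had no call on the probe set of highest signal and a call on another one. Dnmt3a, a de novo DNA methyltransferase, differed by 0.13 on the first and by -0.89 on the other, with means of 4.45 in B6-ChrXTMSM and 5.33 in B6 testes (adjusted p = 0.000237, limma). The co-repressor Skil differed by 0.22 and by -1.35, with 2.58 in B6-ChrXTMSM and 3.92 in B6 on the other probe set. Ccng1, a cyclin induced by p53, differed by 0.37 and by -1.20, with 5.34 in B6-ChrXTMSM and 6.53 in B6. Wdr5, a subunit of histone methyltransferase complexes, differed by -0.18 and by -1.11, and the ribosomal RNA helicase Ddx21 by -0.04 and by -1.10. In these genes the second probe set had the lower signal. Gja1, the gap junction protein of Sertoli cells, differed by 0.33 and, on the other probe set, by 0.73, with 6.4 in B6-ChrXTMSM and 5.67 in B6. The transcripts that these probe sets detect were not compared.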
